A study of Mus musculus with 12 samples.

Results

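The cytosolic ribosomal protein genes are the genes for the proteins of the large and the small ribosomal subunit, and they were taken from the count table by symbol. A symbol was a member when it was Rpl or Rps, a number and at most 1 letter out of a, x, y and l, or was Rplp0, Rplp1, Rplp2 or Rpsa. This rule found 83 of 35303 symbols, 51 of the large and 32 of the small subunit by their symbol. Among them are Rpl6l and Rpl32l, which are annotated as processed pseudogenes. Bulk RNA-seq of poly(A) RNA compared 3 groups of 4 libraries, which the labels call biological replicates, from myeloid-derived suppressor cells (MDSCs), immunosuppressive myeloid cells. The cells came from the bone marrow of wild-type female C57BL/6 mice aged 6 to 10 weeks, had been grown for 3 days with IL-6 and GM-CSF, and were purified as CD11b+Gr1+ cells. The groups were unmodified MDSCs (MDSC), MDSCs with blank PLGA nanoparticles bound to their surface by click chemistry (MDSC-NP-Blk), and MDSCs bound in the same way to PLGA nanoparticles loaded with rapamycin (CITED). All 3 groups were then kept for 24 hours with 40 ng/ml of IL-6 before RNA extraction. The sources used here do not state whether the unmodified cells had been given the azido sugar used for the conjugation, or whether libraries with the same replicate number came from the same bone marrow, so p-values measure the spread between these libraries only.

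A ribosome is built from a large and a small subunit, each a set of ribosomal RNAs wrapped in many different proteins, most of them present in a single copy per subunit, so that cells make these proteins in matched amounts. The mRNAs of nearly all of these proteins start with a C followed by a run of pyrimidines, the terminal oligopyrimidine (TOP) motif, through which the kinase complex mTORC1, the target of rapamycin, adjusts their translation. Mammalian genomes also hold many intronless copies of these genes, made by reverse transcription of the spliced mRNA, so that the reads of a parent gene and of its copies can be hard to tell apart.

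The start of a few members is shown because it carries the TOP motif. The windows are 30 bases long, begin 10 bases before the RefSeq start of the gene, and are in GRCm38.p6, whereas the counts were made on GRCm39. Capitals mark a run of C followed by at least 4 pyrimidines, searched on the strand of the gene only. The marked run begins at the annotated start in Rplp2 (chr7:141447641-141447670, plus strand), Rps6 (chr4:86857348-86857377, minus), Rpl15 (chr14:18270967-18270996, minus) and Rps27 (chr3:90213629-90213658, minus). In Rps9 (chr7:3704031-3704060, plus) the marked run begins 3 bases before that start, with further pyrimidines before it, and in Rpl5 (chr5:107900518-107900547, plus) none was found.
Rplp2: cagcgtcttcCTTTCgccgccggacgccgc
Rps6: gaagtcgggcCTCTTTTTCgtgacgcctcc
Rpl15: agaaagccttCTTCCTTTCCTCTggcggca
Rps27: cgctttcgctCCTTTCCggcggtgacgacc
Rps9: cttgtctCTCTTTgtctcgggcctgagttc
Rpl5: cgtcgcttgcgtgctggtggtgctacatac

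Of the 83 members, 61 had a RefSeq start entry, and 14 of these (23.0%) had the run exactly at the start, against 3.0% of 27025 genes with an entry. The share was 21.1% in the large and 26.1% in the small subunit. With the run allowed within 5 bases of the start it was 47.5%, against 21.2% of all genes. Of 69 mitochondrial ribosomal protein genes none had the run at the start and 24.6% had it within 5 bases, and of 9 other genes known for the motif 1 had it at the start.

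A second set of sequences is shown because it bears on how the counts of some members were split. Each window is 30 bases of the spliced mRNA of a member, and the capitals mark the last base of an exon and the first base of the next. The same 30 bases stand without interruption in a copy elsewhere in the genome (GRCm39, annotation of GENCODE release M39). Rpl5 (chr5:108048367-108058471, plus) is interrupted between chr5:108049791-108049805 and chr5:108049888-108049902, and its copy Gm15500, an annotated processed pseudogene with 1 exon where Rpl5 has 8, holds the run at chr7:114305311-114305340 (minus). Rpl12 (chr2:32851496-32855357, plus) and Gm10275 (chr10:29574792-29575286, minus), Rpl10 (chrX:73314418-73316741, plus) and Rpl10-ps3 (chr9:50255501-50256268, minus), and Rps27 (chr3:90119819-90120977, minus) and Rps27rt (chr9:114811434-114811807, minus) are pairs of the same kind. Their windows lie at chr2:32851837-32851851 and chr2:32852061-32852075, at chrX:73314616-73314630 and chrX:73315266-73315280, and at chr3:90120500-90120514 and chr3:90120337-90120351 in the members, and at chr10:29575235-29575264, chr9:50256204-50256233 and chr9:114811646-114811675 in the copies.
Rpl5 and Gm15500: ttcgaaggcggcgaGAgggtaaaactgact
Rpl12 and Gm10275: acgaggtcaaagtcGTgtacctgaggtgca
Rpl10 and Rpl10-ps3: ccgccccgcccggtGTtaccggtattgtaa
Rps27 and Rps27rt: acgtgaaatgcccaGGatgctataaaatca

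The libraries held between 20604809 and 37855478 counts on genes, and 3 counts, between 7.92e-06% and 1.46e-05% of a library, were taken as the limit of detection. All 12 markers of MDSCs and myeloid cells were detected in each group, and their summed level in CPM was 27200 to 30100 in CITED, 31500 to 34500 in MDSC, and 35200 to 36500 in MDSC-NP-Blk. Of 8 markers of CNS cells, which a tissue field of the labels names, Snap25, Rbfox3, Gfap and Aqp4 were at 0 in all libraries, whereas others, among them Mbp and Tmem119, had counts, and the list summed to 154 to 164 CPM in MDSC, 144 to 161 with blank and 119 to 134 with rapamycin nanoparticles. Markers of macrophages summed to 513 to 539, 424 to 482 and 645 to 710 CPM in MDSC, MDSC-NP-Blk and CITED, those of mast cells and basophils to 516 to 554, 493 to 539 and 276 to 287, those of progenitors to 135 to 156, 106 to 126 and 67.4 to 77.2, those of B and plasma cells to 27.8 to 35.3, 22.2 to 25.4 and 10.1 to 11.8, and those of megakaryocytes to 208 to 235, 263 to 281 and 285 to 307. Those of T and NK, erythroid and dendritic cells stayed below 43 CPM in every library. The part of these cells in the results below was not tested, and in bulk RNA a change in the make-up of the cells and a change in the RNA of each cell cannot be told apart.

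Ribosomal protein genes took a larger share of the counts in both groups with nanoparticles than in unmodified MDSCs. They took 3.96%, 4.03%, 3.84% and 3.72% of the counts in the 4 MDSC libraries, 5.86%, 5.22%, 5.19% and 5.63% in the MDSC-NP-Blk libraries, and 5.31%, 5.04%, 4.81% and 4.95% in the CITED libraries. Every library with nanoparticles lay above every MDSC library, whereas MDSC-NP-Blk and CITED overlapped. The mean share of MDSC was 3.89% ± 0.137 (SD, n = 4). It was 1.41 times as high in MDSC-NP-Blk, at 5.48% ± 0.327, and 1.29 times as high in CITED, at 5.03% ± 0.213. The 95% Wilson interval of a library was far narrower than the spread between libraries (3.953% to 3.968% in MDSC replicate 1) and, like the floor of 3 counts, covers counting error only. With the near-identical copies added to their parent genes the shares were 4.34%, 6.08% and 5.62%. The 78 mitochondrial ribosomal protein genes together took 0.184%, 0.170% and 0.175%.

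The large and the small subunit moved together. Genes of the large subunit took 2.25% ± 0.0791 (SD, n = 4) of the counts in unmodified MDSCs, 3.16% ± 0.194 with blank and 2.91% ± 0.12 with rapamycin nanoparticles, and those of the small subunit took 1.64% ± 0.0585, 2.32% ± 0.133 and 2.12% ± 0.0933. The ratio of large to small subunit counts was 1.38 ± 0.00795, 1.37 ± 0.00616 and 1.37 ± 0.00548 in the same order. It stayed between 1.359 and 1.385 over all 12 libraries while the share itself ranged from 3.72% to 5.86%.

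**Figure D1:**
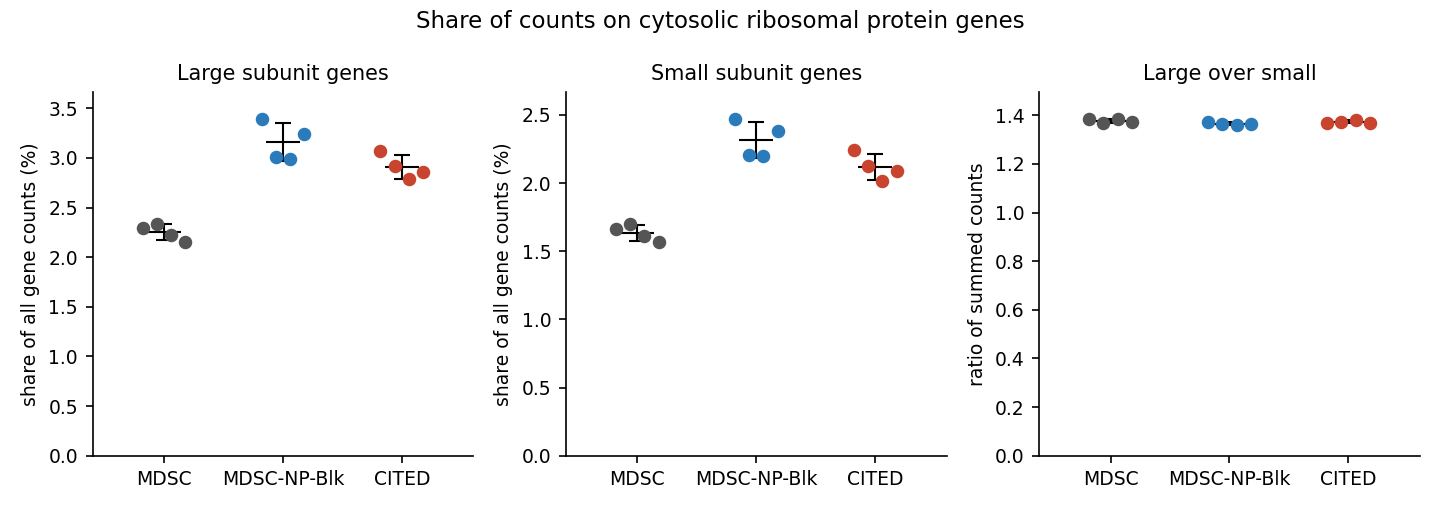
Percent of all counts on large and on small subunit genes and the ratio of the large to the small subunit, by library (points) with the group mean and SD (bars). Both shares are higher in all 8 libraries with nanoparticles than in the 4 MDSC libraries, and the ratio stays between 1.359 and 1.385.

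Compared with unmodified MDSCs, nearly all ribosomal protein genes were higher in CITED. Of the 82 members with enough counts to test, 76 were higher and 2 lower at an adjusted p below 0.05 in edgeR's quasi-likelihood test, against 22.2% of all 17676 genes tested called higher and 22.2% called lower. All 32 small subunit genes rose, with a median log2 fold change of 0.68, as did 44 of 50 large subunit genes, with a median of 0.62. The median over all members was 0.64, a 1.56-fold higher level, beside -0.05 over all genes tested. In the same 76 genes the 4 CITED libraries lay above the 4 MDSC libraries without overlap, which held for 21.2% of all genes, and in Rpl3 and Rpl5 they lay below, as in another 21.2% of all genes. The interquartile range of the 78 members with a mean normalized count above 50 lay between 0.55 and 0.75 on the log2 scale, and 4 members reached a log2 fold change of 1, against 3.28% of all genes, while none reached -1, against 6.7%.

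The largest rises were those of Rplp2, Rps9, Rpl37 and Rpl37a. Rplp2 codes for an acidic P protein of the large subunit stalk, where translation factors dock, and had normalized counts of 7499, 7313, 7060 and 6871 in MDSC, 17932, 14300, 14251 and 16471 in MDSC-NP-Blk, and 16891, 16129, 14852 and 15195 in CITED. Its MDSC libraries lay far below the 8 others, which overlapped with each other. The log2 fold change of Rplp2 in CITED against MDSC was 1.13 (SE 0.0590), with an adjusted p of 1.2e-17 in edgeR's quasi-likelihood test. Rps9, a core protein of the small subunit that binds ribosomal RNA early in its assembly, had 18442, 20103, 17898 and 16905 in MDSC, 43259, 38107, 36542 and 42056 in MDSC-NP-Blk, and 42781, 41559, 37695 and 37511 in CITED. The pattern of Rps9 was the same, with the MDSC libraries apart and the 2 nanoparticle groups overlapping, and its log2 fold change was 1.12 (SE 0.0555; adjusted p = 3.0e-18 in edgeR's quasi-likelihood test). Rpl37 and Rpl37a, small zinc-binding proteins of the large subunit, rose by 1.03 and 1.02 on the log2 scale. Rps28, a small protein of the small subunit head, had 4579, 4820, 4209 and 4128 in MDSC and 10607, 8260, 8250 and 8257 in CITED, where replicate 1 stood above the other libraries.

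Rpl3 and Rpl5 were the members that fell in CITED. Rpl3 codes for a large subunit protein next to the site of peptide bond formation, and had normalized counts of 21877, 21190, 20615 and 21469 in MDSC, 24300, 23003, 23339 and 23410 in MDSC-NP-Blk, and 18387, 17508, 16899 and 16502 in CITED. The CITED libraries lay below both other groups without overlap, and those of MDSC-NP-Blk lay above MDSC. The log2 fold change of Rpl3 was -0.30 in CITED against MDSC (SE 0.0436; adjusted p = 5.3e-07 in edgeR's quasi-likelihood test), and it stayed below 0 in every alternative tried. Rpl5, which joins the large subunit as part of a particle with ribosomal RNA and is also known for binding Mdm2, had 437, 425, 375 and 467 in MDSC, 485, 410, 425 and 433 in MDSC-NP-Blk, and 335, 336, 284 and 306 in CITED. Its CITED libraries again lay below the others, and its log2 fold change was -0.44 (SE 0.0967; adjusted p = 2.8e-04 in edgeR's quasi-likelihood test). For Rpl5 this held only for the reads assigned to that symbol. With the copies added, the log2 fold change of Rpl5 was 0.37 (SE 0.0444; adjusted p = 7.3e-09 in edgeR's quasi-likelihood test), whereas that of Rpl3 remained -0.30.

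The members that rose least in CITED against MDSC were Rps2 with a log2 fold change of 0.18, Rpl10a with 0.27, Rps27l with 0.33, and Rpl15 with 0.35. Rps2, which lines the mRNA entry of the small subunit, had 25977, 26090, 25017 and 23880 in MDSC, 34469, 31015, 29521 and 33460 in MDSC-NP-Blk, and 28699, 28599, 28056 and 29299 in CITED. The CITED libraries of Rps2 lay above all MDSC libraries and below all MDSC-NP-Blk libraries. When libraries were scaled by their total counts alone, Rps2 was at -0.09 and Rpl10a at -0.01 in CITED against MDSC, and neither was called. Genes not called in either direction were Rpl3l, Rpl6l, Rpl39l and Rpl32l, all of them very low.

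The size of the rise depended on the scaling. Scaling by total counts alone moved the median of all genes to -0.32 in CITED against MDSC and gave a member median of 0.37. With it, 71 members were higher and 2 lower. The distance between members and all genes was 0.69, as against 0.70 with TMM factors. Library factors shift all genes by nearly the same amount, so this distance hardly changes with them and is no check on the rise. Taking out a trend with coding length in each library gave a member median of 0.37, with 72 higher and 2 lower, beside -0.08 over all genes.

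MDSCs carrying blank nanoparticles also had higher levels of ribosomal protein genes. Against MDSC, 75 of 82 members were higher in MDSC-NP-Blk and 0 lower in edgeR's quasi-likelihood test, where 19.9% of all genes were called higher and 18.6% lower. None was lower at an unadjusted p under 0.05 or in DESeq2 either. The median log2 fold change was 0.76, a 1.69-fold higher level, beside -0.03 over all genes tested. It was 0.73 in the large subunit, where 45 of 50 genes rose, and 0.79 in the small subunit, where 30 of 32 rose. In 76 members the libraries with blank nanoparticles lay above those of MDSC without overlap, against 18.1% of all genes, and in 0 they lay below, against 17.4%. A log2 fold change of 1 was reached by 7 members, against 1.88% of all genes, and a change of -1 by 0, against 2.86%. Among the 7 were Rplp2, Rps9 and Rps27. With total counts alone the median of the members was 0.50 beside -0.29 over all genes, with 73 higher and 1 lower (Rpl3), and with the length trend taken out it was 0.51 beside -0.05, with 74 higher and 1 lower (Rps27l).

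**Figure D2:**
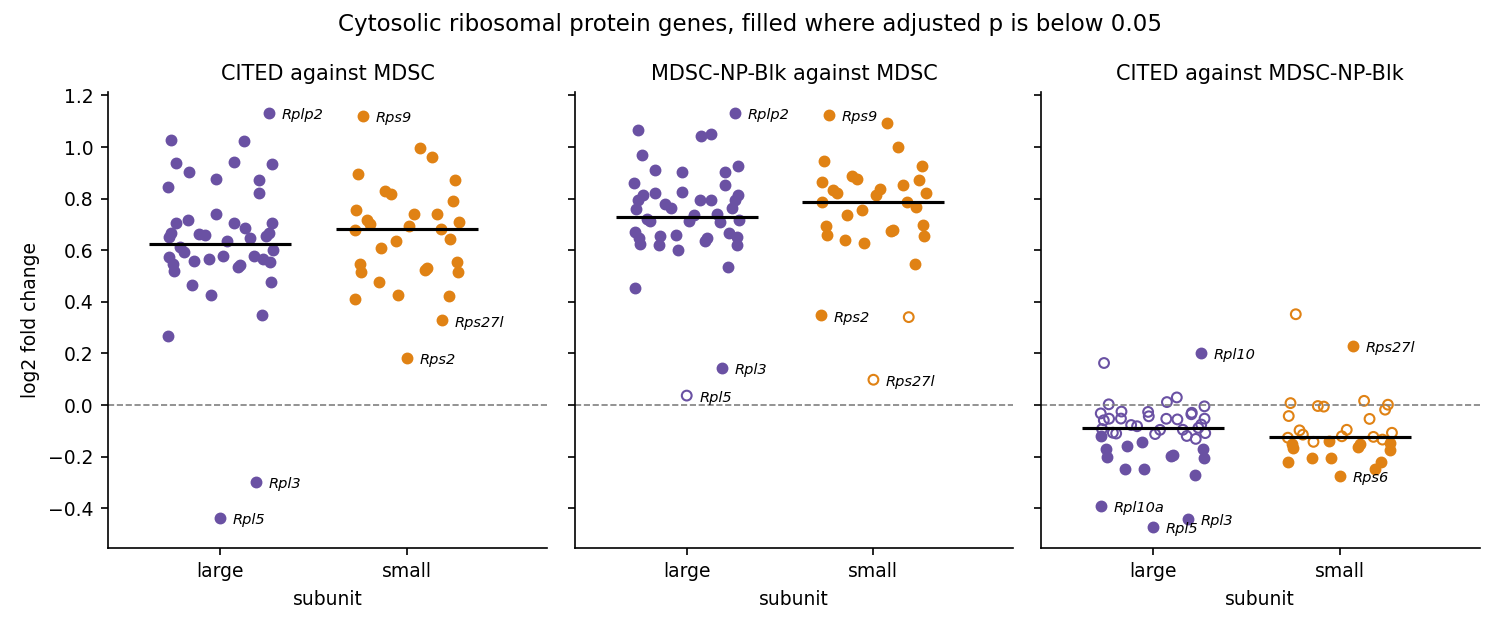
Log2 fold change of the 78 members with a mean normalized count above 50 in each comparison, by subunit (1 point per gene, filled where the adjusted p is below 0.05, line at the median over the members tested). Large and small subunit genes lie together, near 0.62 and 0.68 in CITED against MDSC, near 0.73 and 0.79 for blank nanoparticles against MDSC, and near -0.09 and -0.12 in CITED against MDSC-NP-Blk.

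The comparisons of CITED and of MDSC-NP-Blk share the MDSC libraries, and each has its own values. Rplp2 had a log2 fold change of 1.13 (SE 0.0590; adjusted p = 4.6e-17 in edgeR's quasi-likelihood test) and Rps9 of 1.13 (adjusted p = 1.1e-17 in edgeR's quasi-likelihood test). Rps27, a zinc finger protein of the small subunit, had normalized counts of 942, 819, 686 and 678 in MDSC, 2142, 1283, 1501 and 1794 in MDSC-NP-Blk, and 2009, 1302, 1428 and 1368 in CITED. The MDSC libraries lay below all others, and replicate 1 was the highest library of each group. The log2 fold change of Rps27 in MDSC-NP-Blk against MDSC was 1.10.

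The genes with the most counts rose in both groups with nanoparticles. Rplp0, the P protein that anchors the large subunit stalk, had 36309, 37614, 35128 and 32706 in MDSC, 67836, 61519, 61881 and 64752 in MDSC-NP-Blk, and 67301, 61445, 61232 and 60773 in CITED. Its log2 fold change was 0.82 in CITED and 0.85 in MDSC-NP-Blk, each against MDSC, and the nanoparticle groups overlapped. Rpsa, a small subunit protein also known as the laminin receptor, had 36994, 37344, 35676 and 34614 in MDSC, 69325, 61941, 61067 and 66234 in MDSC-NP-Blk, and 63997, 60172, 59533 and 57892 in CITED. Rpsa rose by 0.74 in CITED and 0.84 in MDSC-NP-Blk on the log2 scale, again with no overlap with MDSC. Rpl4, a large subunit protein that reaches into the exit tunnel, rose by 0.58 and 0.67. Members not called in MDSC-NP-Blk against MDSC were Rpl5 at a log2 fold change of 0.04 (SE 0.0941), Rps27l, Rps4l, Rpl3l, Rpl6l, Rpl39l and Rpl32l. With copies added, Rpl5 stood at 0.50 and was called (adjusted p = 8.4e-12 in edgeR's quasi-likelihood test).

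Between the groups with nanoparticles the differences were small. In CITED against MDSC-NP-Blk, which differ in the rapamycin load, 28 of 82 members were lower and 2 higher in edgeR's quasi-likelihood test, against 11.4% of all genes called lower and 10.5% higher. The median log2 fold change was -0.11, a 0.928-fold level, beside 0.00 over all genes, and it was -0.09 in the large and -0.12 in the small subunit, with 15 and 13 genes lower. The interquartile range of the 78 members above 50 lay between -0.17 and -0.04, and no member reached a log2 fold change of 1 in either direction, against 0.651% of all genes higher and 2.0% lower by that much. In 16 members the CITED libraries lay below those of MDSC-NP-Blk without overlap, against 10.8% of all genes. In 1, Rps4l, they lay barely above them, against 10.4%. Without MDSC-NP-Blk replicate 1, the library with the highest share, the count of lower members was 18, and with the length trend taken out it was 47.

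The largest falls in this comparison were those of Rpl5, Rpl3, Rpl10a, Rps6 and Rpl15, at log2 fold changes of -0.47, -0.44, -0.39, -0.27 and -0.27. The size of 3 of these falls depended on the split between a gene and its copies. With copies added, Rpl5 was at -0.13, Rps6 at -0.17 and Rpl15 at -0.16, all 3 still called, whereas Rpl3 was at -0.44 and Rpl10a at -0.32. Rps6 codes for the small subunit protein that is phosphorylated downstream of mTORC1 and is widely used as a readout of that pathway. It had 20132, 19045, 19404 and 18672 in MDSC, 34955, 32784, 32668 and 33058 in MDSC-NP-Blk, and 28749, 28631, 25079 and 27848 in CITED. The CITED libraries of Rps6 lay between the other groups with no overlap on either side, and the fall against MDSC-NP-Blk had an adjusted p of 1.6e-05 in edgeR's quasi-likelihood test. Its copy Rps6-ps4 went the other way in this comparison, at a log2 fold change of 0.38 (adjusted p = 1.6e-03 in edgeR's quasi-likelihood test). Rpl15, a large subunit protein buried in ribosomal RNA, also lay in between, with 8043, 8237, 7935 and 7537 in MDSC, 12557, 11804, 12009 and 12470 in MDSC-NP-Blk, and 10257, 9545, 10123 and 10530 in CITED. Rpl10a, a protein of the mobile stalk on the other side of the large subunit, had 9214, 8709, 8618 and 8358 in MDSC, 15893, 12839, 12523 and 13892 in MDSC-NP-Blk, and 12742, 9949, 9819 and 9516 in CITED. Replicate 1 of CITED overlapped the MDSC-NP-Blk libraries in Rpl10a, and the other 3 lay below them.

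Rpl10 and Rps27l went the other way, at log2 fold changes of 0.20 and 0.23 in CITED against MDSC-NP-Blk. Rpl10, one of the last proteins to join the large subunit, had 3174, 3015, 2999 and 2648 in MDSC, 4477, 4142, 3854 and 3755 in MDSC-NP-Blk, and 4757, 4826, 3866 and 5235 in CITED. CITED replicate 3 of Rpl10 lay within the MDSC-NP-Blk libraries, and its call (adjusted p = 0.0300 in edgeR's quasi-likelihood test) was lost without MDSC-NP-Blk replicate 3 or 4 or without CITED replicate 1, 2 or 4. With copies added, Rpl10 was at 0.14 (SE 0.0428; adjusted p = 0.0138 in edgeR's quasi-likelihood test). Rps27l, a paralog of Rps27 known as a p53 target, had 1600, 1888, 1604 and 1692 in MDSC, 1999, 1776, 1643 and 1848 in MDSC-NP-Blk, and 2440, 1998, 2008 and 2074 in CITED. CITED and MDSC-NP-Blk overlapped through MDSC-NP-Blk replicate 1, and the call (adjusted p = 0.0143 in edgeR's quasi-likelihood test) was lost without MDSC-NP-Blk replicate 3 or CITED replicate 1. The count of members higher in this comparison was thus between 0 and 2 when single libraries were left out.

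**Figure D3:**
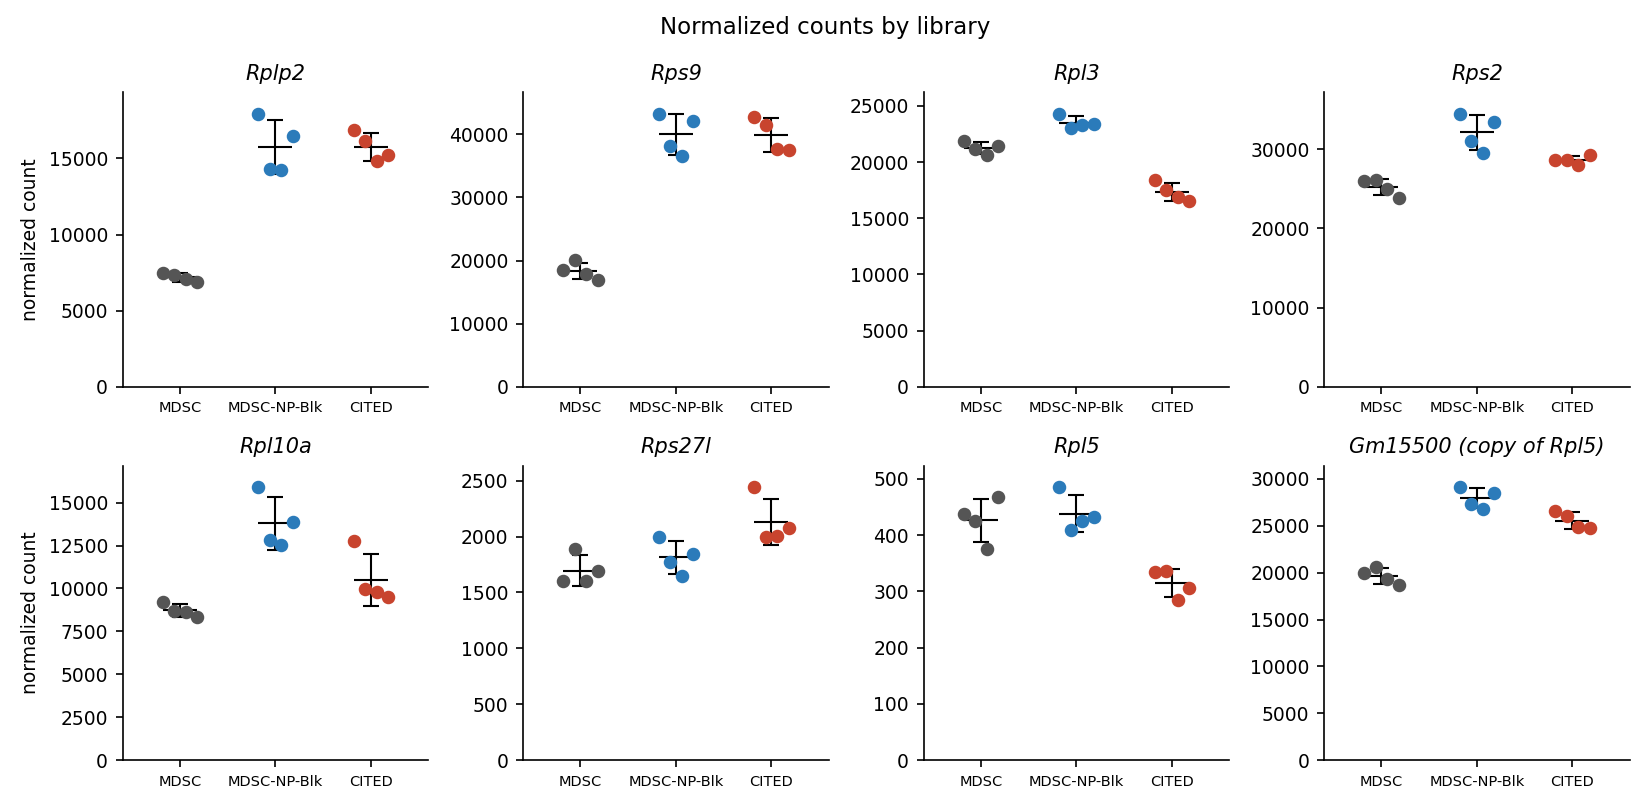
Normalized counts by library (points) with the group mean and SD (bars) for Rplp2, Rps9, Rpl3, Rps2, Rpl10a, Rps27l, Rpl5 and Gm15500, the intronless copy of Rpl5. Rplp2 and Rps9 are higher in all 8 libraries with nanoparticles, Rpl3 and Rpl5 are lowest in CITED, and Gm15500 is higher in both groups with nanoparticles than in MDSC.

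Levels of the members were compared as normalized counts per kilobase of coding sequence, over the 76 genes with a mean normalized count above 50 whose symbol does not end in l. In MDSC the median level was 20590 per kilobase and the range was 478 (Rpl5) to 117800 (Rpl41, which at 138 coding bases is the shortest of the 76). Counts come from whole transcripts, so dividing by coding length alone can raise the level of genes with a short coding sequence. The other groups had medians of 35240 (MDSC-NP-Blk) and 32830 (CITED), and small subunit genes stood slightly above large subunit genes in each group, with medians of 22300 and 19690 in MDSC. After Rpl41, the highest levels in MDSC were those of Rpsa (40860), Rplp1 (40160) and Rplp0 (37270). Rpl41 and Rplp1 were named here after their values were seen.

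The lowest of these levels were those of genes with an intronless copy that took most of the counts. Rpl5 stood at 478 per coding kilobase alone and at 22540 with its copies, which held 98.4% of the summed counts. Rpl12, a protein at the base of the large subunit stalk, stood at 795 alone and 21920 with copies (95.6%), Rps27 at 3101 and 22520 (87.0%), and Rpl10 at 4609 and 23800 (83.8%). Rpl27a and Rps23, added here after their values were seen, went from 8418 to 24830 and from 13460 to 28710. With the copies added the range over the 76 genes narrowed to 11800 to 117800, and the SD of the log2 level fell from 1.06 to 0.48. This narrowing was seen in the large subunit, from 1.24 to 0.54, and in the small subunit, from 0.66 to 0.37.

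**Figure D4:**
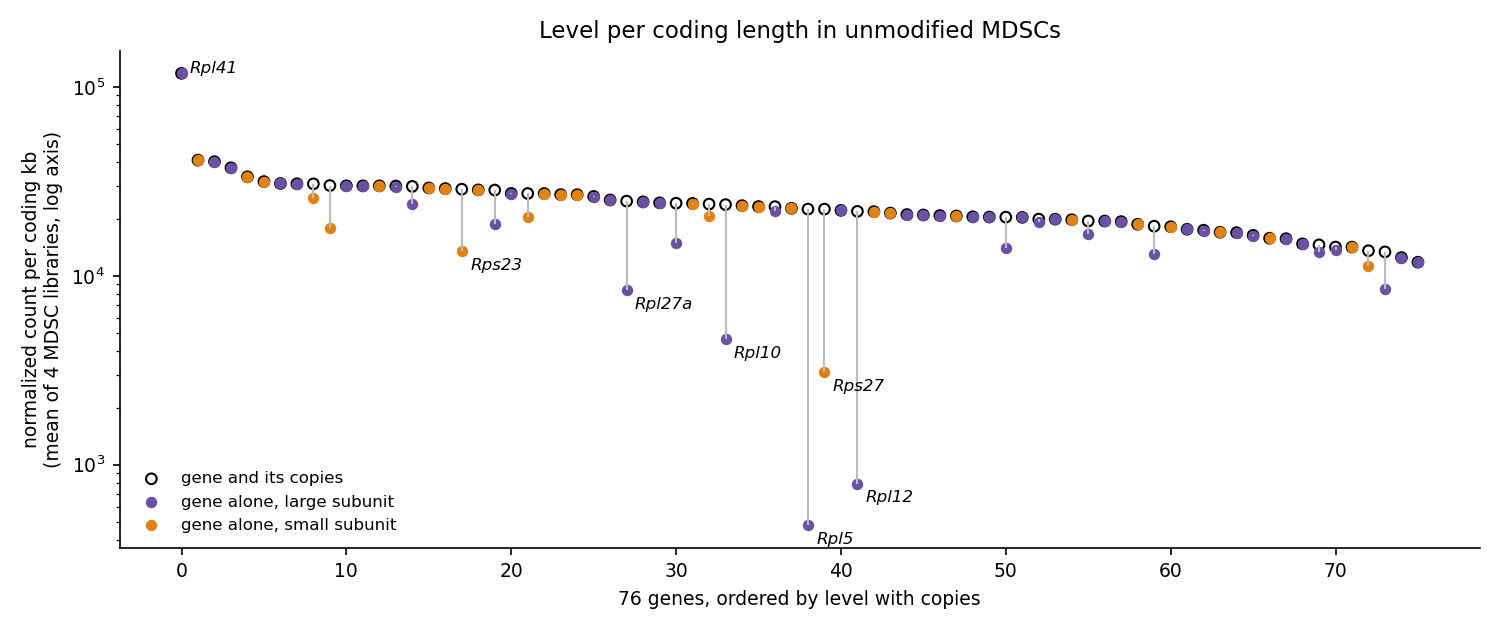
Mean normalized count per coding kilobase in the 4 MDSC libraries (log axis) for 76 members, alone (filled) and with near-identical copies added (open). Most genes lie within a narrow band, and Rpl5, Rpl12, Rps27 and Rpl10 enter it only once their copies are added.

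The copies were also higher with nanoparticles. Gm15500 holds the whole coding sequence of Rpl5 within an exact match of 894 bases, and had 289696 counts over all libraries, whereas 4740 were assigned to Rpl5. Its normalized counts were 19949, 20621, 19343 and 18700 in MDSC, 29104, 27378, 26785 and 28542 in MDSC-NP-Blk, and 26528, 26054, 24840 and 24786 in CITED. Gm15500 was lowest in MDSC and highest in MDSC-NP-Blk, with no overlap between any of the groups, and its log2 fold change against MDSC was 0.38 for CITED and 0.51 for MDSC-NP-Blk. Rpl10-ps3, annotated as protein coding, had 12167, 12993, 11803 and 12128 in MDSC, 23270, 21872, 23028 and 23102 in MDSC-NP-Blk, and 25643, 24898, 24810 and 24424 in CITED, so that CITED was the highest group, as in Rpl10 itself. Rps27rt had 103459 counts and Gm10275 152520, against 15358 on Rps27 and 6975 on Rpl12. All 19 copies with at least 10000 counts were called higher against MDSC with a median of 0.67 for CITED and 0.74 for MDSC-NP-Blk. Over all genes, 22.2% and 19.9% were called higher in these comparisons. In CITED against MDSC-NP-Blk 2 copies were higher and 2 lower, with a median of -0.05, near the shares of 10.5% and 11.4% over all genes. The counts of copies rest on the estimated split of reads with the parent genes, so their rise is not a separate result.

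Sequence sharing was the rule in these genes. In 30 members every 31-base word of the coding sequence also occurred in transcripts of other genes, and in 73 at least 50% did. The 7 members with a mean normalized count above 50 and less sharing, Rpl4 and Rpl41 among them, are those whose reads are easiest to assign. Their median log2 fold change was 0.64 in CITED and 0.67 in MDSC-NP-Blk, each against MDSC, with 7 and 6 of them called higher, and -0.10 in CITED against MDSC-NP-Blk, with none called. With copies added to all members, 77 were higher and 1 lower in CITED against MDSC, 76 and 0 when MDSC-NP-Blk was set against MDSC, and 2 and 27 between the groups with nanoparticles.

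Members whose symbol ends in l are related genes or pseudogenes, several of them with expression limited to certain tissues, and apart from Rps27l they were low. Rpl6l and Rpl32l are annotated as processed pseudogenes with 1 exon each. Rps4l, related to the X-linked Rps4x, had 1258 counts over the 12 libraries, Rpl6l 239, Rpl3l, a muscle form of Rpl3, 156, Rpl39l 133 and Rpl32l 8. Rpl10l, a germ cell form of Rpl10, had 0 counts and was the member not tested. Rps4l had normalized counts of 84.9, 101.8, 75.5 and 63.4 in MDSC, 104.6, 122.7, 110.5 and 72.5 in MDSC-NP-Blk, and 122.9, 129.6, 132.1 and 142.2 in CITED. It was highest in CITED without overlap, but barely so, with 122.9 in the lowest CITED library and 122.7 in the highest of MDSC-NP-Blk. Rps4l passed the test against MDSC (log2 fold change 0.69, SE 0.186, adjusted p = 2.2e-03 in edgeR's quasi-likelihood test). It did not pass against MDSC-NP-Blk (0.35, adjusted p = 0.191 in edgeR's quasi-likelihood test). Rps27l, at 6730 per coding kilobase in MDSC, has no near-identical copy, and its log2 fold change with blank nanoparticles was 0.10 (adjusted p = 0.290 in edgeR's quasi-likelihood test).

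In several libraries most members lay on the same side of their group mean. The median coefficient of variation within groups was 6.64%, and it was lowest in Rpl4 (3.22%), Rpl3 (3.38%) and Rpl15 (3.63%) and highest in Rps27, followed by Rps4l (17.0%) and Rpl12 (14.8%). In MDSC-NP-Blk replicate 1 all 78 members with a mean normalized count above 50 lay above their group mean, by a median of 0.11 on the log2 scale, and in CITED replicate 1 75 did, also by 0.11. In MDSC-NP-Blk replicates 2 and 3 only 4 and 6 members did so, in CITED replicate 3 only 6, and in MDSC replicates 3 and 4 only 10 and 5. The other libraries were CITED replicates 2 and 4 with 36 and 21 members above the mean, MDSC-NP-Blk replicate 4 with 56, and MDSC replicates 1 and 2 with 68 and 73.

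The libraries also differed in how expression relative to the mean of all libraries ran with coding length over 10543 genes. Spearman's rho was 0.324, 0.227, 0.35 and 0.362 in the MDSC libraries, -0.408, -0.0778, 0.0497 and -0.267 in MDSC-NP-Blk, and -0.366, -0.221, -0.161 and -0.24 in CITED. Members are short, with a median coding length of 462 bases against 1356 in all genes above the same count. The libraries with the lowest rho in their group, MDSC-NP-Blk replicate 1 and CITED replicate 1, were also those with the highest level of the members. In MDSC-NP-Blk replicate 3, where rho was 0.0497, the median of the members was 0.66 above the MDSC mean on the log2 scale, and the part of the length trend in the rise was not tested beyond the correction above. Among the 78 members themselves rho between log2 fold change and coding length was -0.29 for CITED and -0.316 for MDSC-NP-Blk, each against MDSC, a description over genes that share the same libraries.

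**Figure D5:**
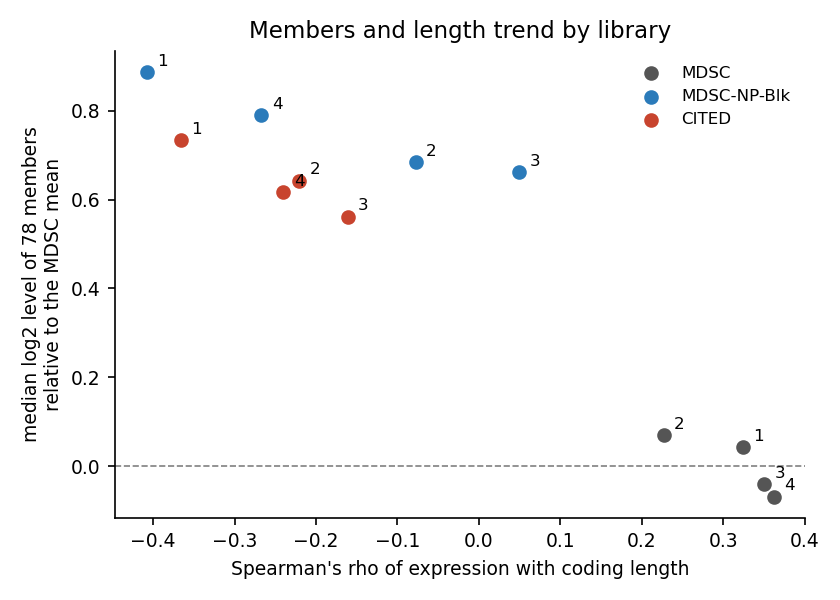
Median log2 level of the 78 members relative to the MDSC mean against Spearman's rho between expression and coding length, 1 point per library. The MDSC libraries lie near 0 at a rho above 0.2, and the libraries with nanoparticles lie between 0.56 and 0.89 at a rho from -0.408 to 0.0497.

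Members with the pyrimidine run exactly at the annotated start had medians close to those of the others. The 13 such genes with a mean normalized count above 50 stood at 0.70 in CITED against MDSC, 0.82 in MDSC-NP-Blk against MDSC, and -0.13 in CITED against MDSC-NP-Blk. The 44 with another start window had 0.64, 0.74 and -0.10. The search found the run at the start in 1 of 9 other genes known for the motif, so it misses carriers. The 44 are therefore not genes without the motif, and the part of the motif in the changes was not tested.

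Proteins of the cytosolic ribosome that the symbol rule leaves out followed the members. All 5, among them Fau and Rps3a1, were higher against MDSC in both CITED and MDSC-NP-Blk, also when scaled by total counts alone or with the length trend taken out. Over all genes, 22.2% and 19.9% were called higher. Fau, which codes for a ubiquitin-like protein fused to a small subunit protein, had the largest log2 fold changes, 1.16 and 1.23. All 31-base words of Fau also occurred in transcripts of other genes, and the part of read assignment in its values was not tested. Rps3a1 was the 1 of the 5 called in CITED against MDSC-NP-Blk, at -0.17, where 11.4% of all genes were called lower. Among the paralogs, Rpl22l1, a form of Rpl22, had mean normalized counts of 1583 ± 72.4 (SD, n = 4) in MDSC, against 1661 ± 165 with blank and 1167 ± 118 with rapamycin nanoparticles, and was lower in CITED than in MDSC (-0.44) and MDSC-NP-Blk (-0.51).

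The 78 mitochondrial ribosomal protein genes, which serve the separate ribosome of mitochondria, did not move as a block. In CITED against MDSC 33 were higher and 11 lower, with a median log2 fold change of 0.16 and extremes of -0.79 (Mrps22) and 1.24 (Mrpl52), where 22.2% of all genes were called in each direction. With blank nanoparticles 22 were higher and 14 lower than in MDSC, with a median of -0.00, where 19.9% and 18.6% of all genes were called. The split turned with the scaling: with total counts alone CITED had 10 higher and 32 lower, and MDSC-NP-Blk 9 and 40, and with the length trend taken out 13 and 27, and 12 and 29.

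Other mRNAs known to carry the TOP motif rose with the members. Of 15, mostly translation factors, 14 were higher and 1 lower in CITED against MDSC, with a median of 0.60, and 14 were higher and 0 lower in MDSC-NP-Blk against MDSC, with a median of 0.70. The shares over all genes were 22.2% higher and 22.2% lower for CITED, and 19.9% and 18.6% for MDSC-NP-Blk. In CITED against MDSC-NP-Blk 2 were higher and 4 lower, where 10.5% and 11.4% of all genes were called. Tpt1, the translationally controlled tumor protein, had the largest rise in CITED at 1.19, and Eef1a1, the elongation factor that brings tRNA to the ribosome, rose by 0.65. Hnrnpa1, an RNA-binding protein, was the gene that fell in CITED, at -0.26 against both other groups. In Tpt1 and Hnrnpa1 100% of the 31-base words also occurred in transcripts of other genes. Copies were added to members only, so the part of read assignment in these values was not tested.

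Genes for mTORC1 and for regulators of TOP mRNAs went both ways. Of 13, 4 were higher and 6 lower in CITED against MDSC, 5 and 6 with blank nanoparticles against MDSC, and 0 and 2 between the groups with nanoparticles. Over all genes the shares called higher and lower were 22.2% and 22.2%, 19.9% and 18.6%, and 10.5% and 11.4% in these comparisons, so that the last count was near the share of all genes. Mlst8, a subunit of mTORC1, was at -0.92 in CITED and -0.52 in MDSC-NP-Blk, and Rptor, the subunit that recruits substrates, at -0.64 and -0.65. Mtor itself was at -0.52 and -0.61, but with the length trend taken out its change in CITED was -0.08 and was not called. Eif4ebp1, an inhibitor of cap-dependent translation that mTORC1 phosphorylates, was higher in both, at 0.92 and 0.86, as was Fkbp1a, the protein that binds rapamycin, at 0.90 and 0.77. The genes called in CITED against MDSC-NP-Blk were Mlst8 at -0.41 and Pdcd4, an inhibitor of the helicase eIF4A, at -0.47. Of 9 chaperones and assembly factors of ribosomal proteins 5 were higher and 1 lower in CITED against MDSC, from -0.999 in Heatr3 to 1.13 in Zfp622, 4 and 2 with blank nanoparticles against MDSC, and 2 and 0 between the groups with nanoparticles, to be read against the same shares.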

How the data were processed

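Poly(A) RNA-seq of 12 libraries, 4 per group, was analyzed. The authors quantified paired-end reads with Salmon 1.4.0 against GENCODE transcripts of GRCm39 with genome decoys, summed them per gene with tximport in R 4.3.2, and deposited whole-number counts per gene symbol. The GENCODE release and the strand setting are not given in the sources used here. The group and replicate number of a library came from its title.

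Testing used edgeR 4.0.16 in R 4.3.3 on the 17676 symbols that reached 2 counts in all 12 libraries combined, with TMM factors, glmQLFit and glmQLFTest, and group as the only term. Benjamini-Hochberg adjustment ran over all 17676, and a call is an adjusted p below 0.05. For normalized counts, each library was divided by its size times its TMM factor and brought back to the mean library size. Coding lengths, 31-base words and near-identical copies came from GENCODE release M39, and start windows from RefSeq in GRCm38.p6. A copy is a gene of the count table that holds at least 80% of the words of a coding sequence and is not a member. It also had to be annotated as a pseudogene or have a symbol that starts with Rp. Akr1cl, the gene ranked first for words shared with Rpl10a, was therefore not added to Rpl10a. Salmon divides reads that fit several transcripts by estimation, so the split between a gene and its copy is itself an estimate. The 83 members and the other lists were chosen with earlier results of these data known.

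Members are named by a rule. Out of the members called in a comparison and averaging over 50 normalized counts, it takes the 5 that rose most and the 5 that fell most, and those called against the direction of most. It adds the 5 with most counts, the 3 most and 3 least variable within groups, and all members whose symbol ends in l. From the other lists it takes the extremes and the genes called. Members named outside it, such as Rpl41, were chosen after their values were seen.

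The alternatives were other library factors, DESeq2 1.42.0, other filters, robust estimation, a replicate block, the 8 libraries of a comparison alone, a loess correction for coding length, a fold threshold, and leaving out each library. Adding the copies, keeping members with under 50% of words shared, and centring on the median gene were added after the data were seen. Same-numbered libraries did not deviate together, so the numbers were not taken as pairs. Some genes are not reported here. The edgeR and DESeq2 fits of CITED against MDSC were tested on simulated counts, and the other steps were not. Figures used Python 3.11.15 and matplotlib 3.10.9.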

Additional observations from a re-analysis of the deposited data

Results flagged for a closer look

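Of 69 groups of 4 libraries examined for the named members, 4 held a library whose gap to the nearest other, divided by the range of the group exceeded the 95% critical value of Dixon's test, and chance flags about 1 in 20 groups. Each of these libraries was a replicate 1 and the highest of its group. For Rps28 the library was CITED replicate 1, with 10610 normalized counts where the others had 8250 to 8260, a gap of 0.996 of the range. For Rplp0 it was CITED replicate 1 with 67300 against 60770 to 61450 (0.897), and for Rpl10a CITED replicate 1 with 12740 against 9516 to 9949 (0.866). For Rps6 it was MDSC-NP-Blk replicate 1 with 34960 against 32670 to 33060 (0.83). These are the libraries in which 75 and 78 of 78 members lay above their group mean, and they had the lowest rho with coding length of their groups, -0.366 and -0.408. The part of that trend in the outlying values was not tested. With near-identical copies added, the gap was 0.551 of the range for Rpl10a and 0.523 for Rps6, below the critical value, and 0.998 for Rps28, and Rplp0 has no such copy. In CITED replicate 1 the copy Rpl10a-ps1 had 338.6 normalized counts, against 1637.5 to 2247.2 in the other libraries of the group.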

How the results depend on the processing

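Of 1075 values of named members under 25 alternatives, 1054 kept their direction and their side of the threshold, 16 lost the call and 5 changed sign. The last were, in CITED against MDSC, Rps2 (-0.091) and Rpl10a (-0.0080) with total counts alone, Rps27l (-0.049) with the length correction and Rpl5 (0.37) with copies added, and, in MDSC-NP-Blk against MDSC, Rpl3 (-0.12) with total counts alone. A log2 fold threshold of 1 left 4 higher and 0 lower members in CITED against MDSC, 7 higher in MDSC-NP-Blk against MDSC, and 0 and 0 in CITED against MDSC-NP-Blk. With total counts alone the medians against MDSC were 0.37 in CITED and 0.50 in MDSC-NP-Blk, with 1 lower member (Rpl3) in the latter. With the length correction they were 0.37 and 0.51, with 1 lower (Rps27l), and 47 members were lower in CITED against MDSC-NP-Blk. With under 50% of words shared they were 0.58 and 0.65 with the low members Rpl3l and Rpl39l (156 and 133 counts) included. Over the 7 such members with a mean normalized count above 50 they were 0.64 and 0.67. With copies added 1 member was lower in CITED against MDSC. Robust estimation left 1 member higher in CITED against MDSC-NP-Blk. Leaving out single libraries gave medians of 0.61 to 0.68, 0.70 to 0.80 and -0.14 to -0.06 in the 3 comparisons (0.70 without MDSC-NP-Blk replicate 1), and 0 to 2 higher and 18 to 38 lower members in CITED against MDSC-NP-Blk. The shares in MDSC, MDSC-NP-Blk and CITED were 4.27%, 6.13% and 5.61% without the 10 most counted other genes, 4.16%, 5.89% and 5.41% with the 5 symbols the rule leaves out, 4.34%, 6.08% and 5.62% with copies, and 7.12%, 9.36% and 8.63% with counts scaled by coding length. With the replicate number as a block, 76 members were higher and 2 lower in CITED against MDSC, 75 and 0 in MDSC-NP-Blk against MDSC, and 2 and 35 in CITED against MDSC-NP-Blk. Correlations of same-numbered deviations ran from -0.0597 to 0.14, and 1, 0 and 2 of the libraries of the 3 comparisons correlated best with their own number. DESeq2 gave 76 and 2, 75 and 0, and 2 and 27. Depth limits Rpl32l and Rpl10l, which at 8 and 0 counts allow no statement on change. The cause of a change was not tested.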
